A study of Mus musculus with 2 samples.

Results

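The features described here are those that the mitochondrial genome itself encodes: the rows of the deposited expression table whose symbol starts with mt-. The table lists 36 of them, 13 mRNAs, 2 ribosomal RNAs and 21 transfer RNAs, among 30868 features in all. The reference annotation, GENCODE M21, has 37 mitochondrial genes; the remaining one, the lysine transfer RNA gene mt-Tk, was not analysed here. RNA came from MIN6, a mouse insulinoma line that is used as a model of the insulin-secreting beta cell. A library from cells labelled high glucose and palmitate (column HGP), called the treated library below, was set against a library from cells whose label reads nomal, taken as normal (column NGP). The treatment note gives 0.4 mmol/l palmitate, 33.3 mmol/l glucose and 0.5% albumin (BSA). The same note accompanies both libraries, and what the normal cells received is not described apart from it. All values come from 1 line of tumour origin and 1 library per group, so no difference below has a replicate check and none was given a p-value. The series asks how lactate dehydrogenase A acts on histone lactylation and on beta cells under toxic glucose, and these libraries bear on it through the treatment only.

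The mitochondrial genome is a small circle that is transcribed from both of its strands into long precursors. Transfer RNAs lie between most of the mRNAs and ribosomal RNAs, and cutting them out releases the other RNAs. The mRNAs encode core subunits of complexes I, III and IV of the respiratory chain and of ATP synthase, all other subunits of which come from nuclear genes. In beta cells this machinery makes the ATP that closes potassium channels and so couples glucose to insulin release.

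The values are RPKM, read numbers scaled to the length of the feature and to the reads of the library, and they allow levels to be compared between features per length. An mRNA kit was used, and how fully it recovered ribosomal and transfer RNAs is not known from these data. Reads recovered from them summed to 43727919 in the treated and 44149406 in the normal library. Brackets after a ratio of treated to normal RPKM hold an exact 95% interval (Clopper-Pearson, from the reads), which covers counting error only. It would be too narrow where the mates of a pair were each counted. All 10 beta cell markers reached a mean of 1 RPKM, summing to 5803 RPKM in the treated and 6359.6 RPKM in the normal library. Most of that sum is Iapp, at 4692 RPKM in the treated and 4664 RPKM in the normal library. The other 9 were all lower in the treated library, as were 49.3% of the 13947 features of mean RPKM 1 or more. Ins2 had 725 RPKM in the treated and 1197 RPKM in the normal library. Ins1 had 34.8 RPKM in the treated and 66.0 RPKM in the normal library, and G6pc2 77.1 RPKM in the treated and 106 RPKM in the normal library. Of the markers of other cells, Spp1, listed as ductal, stood at 393 RPKM in the treated and 226 RPKM in the normal library, while the ductal markers Sox9 and Krt19 had at most 0.0111 and 0 RPKM. The alpha cell list summed to 69.6 RPKM in the treated and 64.4 RPKM in the normal library, mostly from Ttr, while the alpha cell hormone gene Gcg had 4.68 RPKM in the treated and 7.31 RPKM in the normal library. The delta cell list summed to 9.68 RPKM in the treated and 7.45 RPKM in the normal library. The immune list summed to 2.10 RPKM in the treated and 0.985 RPKM in the normal library, and the acinar, fibroblast and endothelial lists each to at most 0.297 RPKM in either. Only 2 of 4 alpha cell, 1 of 4 acinar and 1 of 3 fibroblast markers are among the listed features, so those sums leave out the others. What part these cells or genes have in the results was not tested.

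Copies of several mitochondrial mRNA genes on nuclear chromosomes are listed with reads of their own, and the origin of those reads was not tested. Aligning the reference transcripts found 11 copies of at least 95% identity over at least 90% of the copy, 7 of them on chromosome 1. Those 7 lie between 24650616 and 24655278 on the minus strand of chromosome 1 (GRCm39). The parts of mRNA genes that they match span a stretch of 4653 bases of the mitochondrial genome, positions 6390 to 11042, from inside mt-Co1 to inside mt-Nd4. The first bases of a gene with almost no reads beside a copy with many, and of one with many beside a copy with almost none, are printed here with the first codon in capitals, because in both pairs gene and copy do not differ.
mt-Co2: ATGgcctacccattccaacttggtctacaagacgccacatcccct
Gm28661: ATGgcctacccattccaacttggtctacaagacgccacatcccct
mt-Nd4l: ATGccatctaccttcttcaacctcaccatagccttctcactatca
Gm10222: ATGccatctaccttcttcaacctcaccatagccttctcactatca

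Of the 7 aligned pairs with chromosome 1, only those of mt-Nd3 and mt-Co1 differ within the alignment, each at 1 base. It is T3C between mt-Nd3 and Gm28438 and A1066T between mt-Co1 and Gm29216, counted from the first base of the mitochondrial gene. These differences are shown with the differing base in capitals, since these are the only letters by which the aligned parts differ.
mt-Nd3: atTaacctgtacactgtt
Gm28438: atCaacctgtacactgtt
mt-Co1: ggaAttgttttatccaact
Gm29216: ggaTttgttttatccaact

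Along this stretch the listing of reads changed from gene to gene. For mt-Co2, the second subunit of cytochrome c oxidase (complex IV), the treated library had 4 reads under the mitochondrial gene and 132137 under Gm28661, and the normal library 0 and 142875. For mt-Atp6, a subunit of the proton channel of ATP synthase, there were 7 reads under the gene and 133914 under Gm10925 in the treated library, and 1 and 142150 in the normal library. For mt-Co3, the third subunit of cytochrome c oxidase, 99.9% of the reads of gene and copy in the treated and 100.0% in the normal library stood under Gm28437. These 3 genes are almost empty in the table although their copies are among its 20 features of highest RPKM.

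At both ends of the stretch most reads of gene and copy, counted over the whole gene, stood under the mitochondrial genes. For mt-Co1, the catalytic subunit of cytochrome c oxidase, 15.4% (15.2% to 15.6%, Clopper-Pearson) of the reads of gene and chromosome 1 copy in the treated library and 15.1% (14.9% to 15.3%) in the normal library were listed under Gm29216, which matches 31.3% of the gene. For mt-Nd3, a subunit of complex I, it was 29.0% (27.3% to 30.7%) in the treated and 24.3% (22.8% to 25.8%) in the normal library. The intervals for mt-Nd3 do not overlap. The share for mt-Co1 also counts reads from the part of the gene that Gm29216 does not match. Per length, Gm29216 had 1016 RPKM in the treated and 1009.7 RPKM in the normal library, beside 1778 and 1807 RPKM for mt-Co1. How the reads of the matching part alone were divided was not determined. mt-Nd4l and mt-Nd4, also of complex I, had 4 and 22 reads under their copies Gm10222 and Gm28439 in the treated library, and 9 and 18 in the normal library, although both copies are 100.0% identical to the aligned part of the gene, which is 99.0% of mt-Nd4l and 63.6% of mt-Nd4. A sequence without differences therefore went with copy listing in mt-Co2, mt-Atp6 and mt-Co3 and with mitochondrial listing in mt-Nd4l and mt-Nd4, in both libraries. The sources used here do not give how reads were assigned between identical places.

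**Figure D1:**
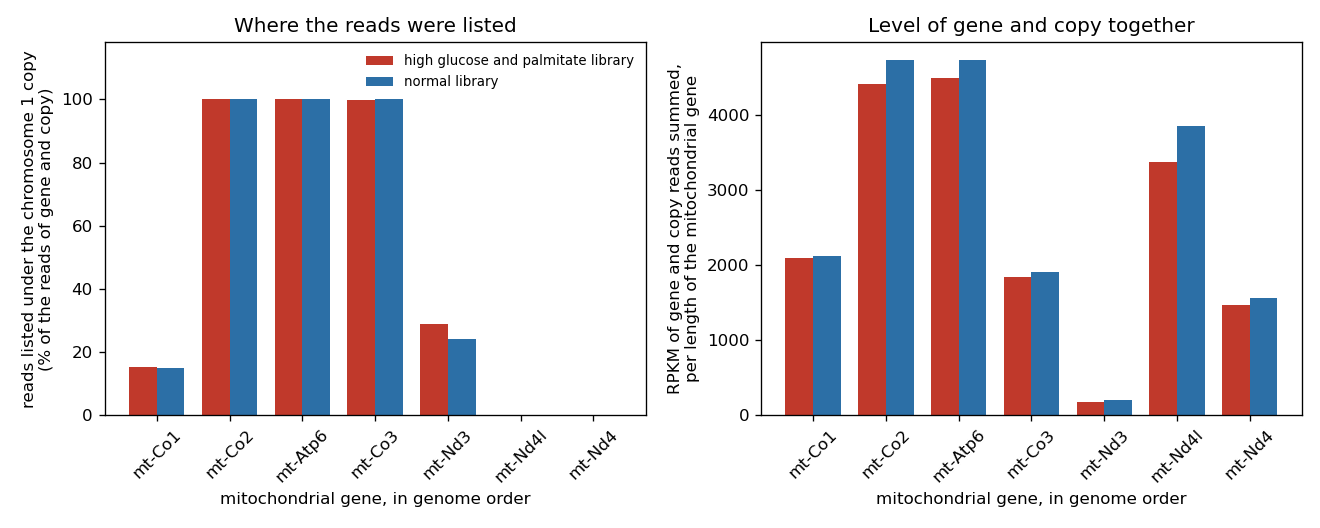
Left, the share of reads listed under the chromosome 1 copy, in percent of the reads of gene and copy, for 7 mitochondrial genes in genome order; right, the RPKM of gene and copy reads summed, per length of the mitochondrial gene. Red bars are the treated and blue bars the normal library; mt-Co2, mt-Atp6 and mt-Co3 stand at 99.9% or more, mt-Nd4l and mt-Nd4 near 0, and the summed level of mt-Nd3, 181 RPKM in the treated and 211 RPKM in the normal library, is far below that of the other 6.

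Copies on other chromosomes held few reads. Gm13341 on chromosome 2, 95.91% identical to mt-Co2, had 35.3 RPKM in the treated and 34.6 RPKM in the normal library. Gm13340, a chromosome 2 copy of mt-Co1, had 608 reads in the treated and 678 in the normal library. Gm13339, a chromosome 2 copy of part of mt-Nd2, had 216 reads in the treated and 290 in the normal library, for an RPKM ratio of 0.752. Gm4076 on chromosome 13, a copy of part of mt-Nd5, had 50 reads in the treated and 34 in the normal library.

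Mitochondrial features together held 1.91% of all reads in the treated library (1.907% to 1.915%) and 2.09% in the normal library (2.085% to 2.093%). With the 11 nuclear copies added the shares were 2.72% and 2.94%. mRNAs made up most of this, at 1.87% of all reads in the treated and 2.04% in the normal library. Transfer RNAs took 0.0332% of the reads in the treated and 0.0412% in the normal library, and ribosomal RNAs 0.0104% in the treated and 0.0122% in the normal library. All 3 classes thus took a smaller share in the treated library. The libraries were made with an mRNA kit, so these shares need not be those of the classes in the cells. In RNA from whole cultures, fewer mitochondria or mitochondrial genomes per cell and less RNA from each cannot be told apart.

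**Figure D2:**
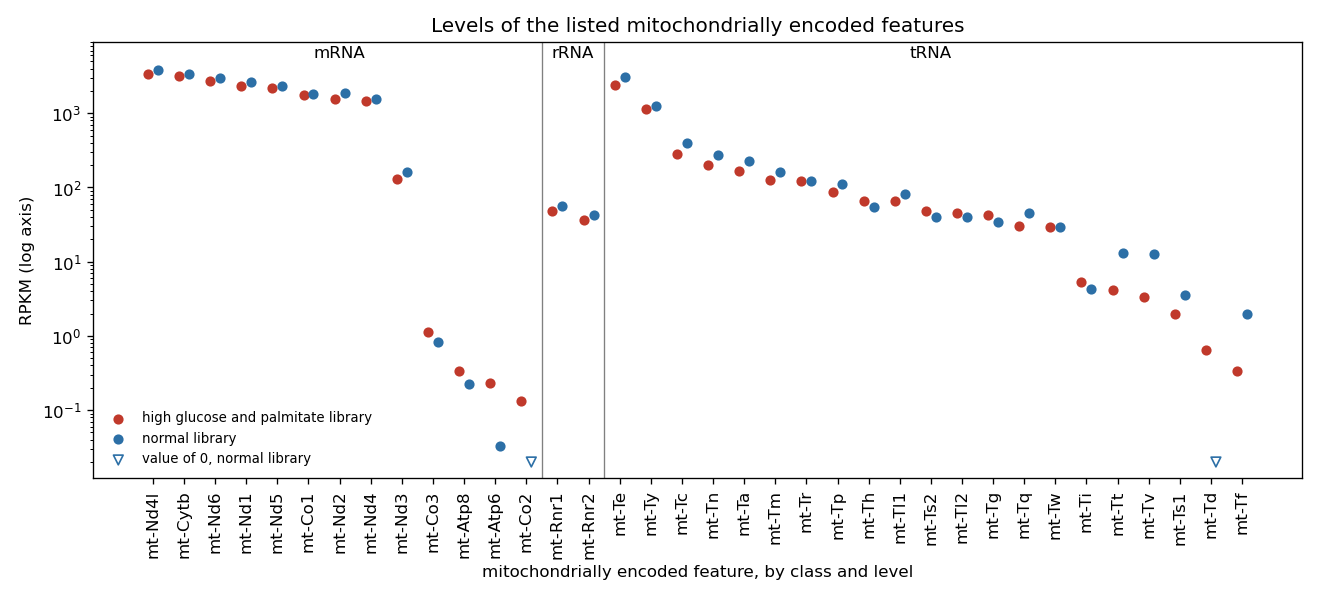
RPKM, on a log axis, of the 36 listed mitochondrial features in the treated (red) and normal (blue) library, by class and in the order of their level in the treated library; open triangles mark a value of 0 in the normal library. 8 mRNAs and the transfer RNA genes mt-Te and mt-Ty lie at 1135 RPKM or more in both libraries, and mt-Co3, mt-Atp8, mt-Atp6 and mt-Co2 at 1.14 RPKM or less in both libraries.

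Among mRNAs under their own names, levels differed far more between genes than between libraries. The order of the levels in the treated library began with mt-Nd4l at 3378 RPKM, mt-Cytb at 3209.8 RPKM and mt-Nd6 at 2679 RPKM, and the order was the same in the normal library for these 3. Below them mt-Nd1 and mt-Nd5 stood at 2296 and 2184 RPKM in the treated library, and mt-Co1, mt-Nd2 and mt-Nd4 between 1466 and 1778 RPKM. mt-Nd2 and mt-Co1 changed places, with mt-Nd2 at 1875 RPKM and mt-Co1 at 1807 RPKM in the normal library. mt-Nd3 was lower than its complex I partners in both libraries. The mRNA of mt-Atp8, which overlaps mt-Atp6 by 43 bases and has no copy listed that met the criterion, had 3 reads in the treated and 2 in the normal library. mt-Atp8 lies within positions 6390 to 11042, the stretch that the chromosome 1 copies span. Whether its reads were placed on chromosome 1 was not tested, so these few reads do not give its level.

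The 7 mRNAs of complex I, which passes electrons from NADH to ubiquinone, were lower in the treated library without exception. mt-Nd2, a membrane subunit, had 1555 RPKM in the treated and 1875 RPKM in the normal library, for a ratio of 0.829 (0.821 to 0.837). mt-Nd3 had 128 RPKM in the treated and 159.9 RPKM in the normal library, for a ratio of 0.803 (0.756 to 0.852), and with the reads of Gm28438 added the ratio was 0.856 (0.813 to 0.901). Adding the copy reads moved mt-Nd3 more than any other of these 7 mRNAs. mt-Nd4l and mt-Nd1 had ratios of 0.876 (0.865 to 0.887) and 0.880 (0.872 to 0.887). mt-Nd6, the only mRNA gene on the minus strand, had 2679 RPKM in the treated and 3014 RPKM in the normal library, for a ratio of 0.889 (0.879 to 0.899). mt-Nd5 at 0.924 (0.918 to 0.930) and mt-Nd4 at 0.940 (0.932 to 0.949) were closest to 1 in this complex.

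mt-Cytb and mt-Co1, of the other complexes, were also lower. mt-Cytb, the cytochrome b subunit of complex III, had 160571 reads in the treated and 171864 in the normal library, an RPKM ratio of 0.943. mt-Co1 had 1778 RPKM in the treated and 1807 RPKM in the normal library, for a ratio of 0.984 (0.976 to 0.992), and 0.987 (0.980 to 0.994) with its copies. Read through gene and copies together, mt-Co2 stood at 0.934 (0.927 to 0.941), mt-Atp6 at 0.951 (0.944 to 0.958) and mt-Co3 at 0.961 (0.951 to 0.972). Under their own names the same 3 genes had ratios that the reads do not determine, mt-Co3 with 39 reads in the treated and 29 in the normal library at 1.36 (0.818 to 2.28), and mt-Atp6 at 7.07 (0.908 to 319).

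With copies added, 12 mRNAs could be compared, and all 12 counting intervals lay below 1. So did 43.9% of 369 features of mean RPKM 100 or more and at least 300 bases, while 36.3% lay above 1. Ratios ran from 0.829 to 0.940 over the 7 complex I mRNAs and from 0.934 to 0.987 over the other 5. Of the complex I mRNAs, 6 had a lower ratio than every one of the other 5. The exception, mt-Nd4 at 0.940 (0.932 to 0.949), has an interval that overlaps those of mt-Co2, mt-Cytb and mt-Atp6. The interval of mt-Nd5, 0.918 to 0.930, also overlaps that of mt-Co2, 0.927 to 0.941. This ordering by complex was noticed in the values, has no replicates behind it and was not tested.

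These differences were small next to the fold used for counting. Counted on log2 of RPKM plus a pseudocount of 0.5, among features of mean RPKM 1 or more, 1.48% of 13947 features were lower and 1.74% higher by at least 1.5-fold, and none of the 9 mRNAs that reached that mean was. All 9 had a log2 ratio below 0, as did 49.3% of the 13947 features and 52.8% of the abundant ones described next. The interval lay below 1 for all 9, where it did so for 22.3% of all features and lay above 1 for 3069 of the 13947. At such depth that says little: among 369 features of mean RPKM 100 or more and at least 300 bases, 43.9% had an interval below 1 and 36.3% one above 1. Of the 369, 1.08% were lower and 0.813% higher by 1.5-fold. The median log2 ratio was -0.17 over the 9 mRNAs and -0.09 over all 13, against -0.01 over those 369 features, whose 5th and 95th percentiles were -0.31 and 0.28. mt-Nd3, at a log2 ratio of -0.32, was the only one of these 9 mRNAs outside that range, and it was inside at -0.22 with its copy. Of the 4 mRNAs below the mean RPKM of 1, mt-Atp6 at 0.46, mt-Co2 at 0.34 and mt-Co3 at 0.29 lay outside it on few reads.

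Both ribosomal RNAs were lower to the same degree. mt-Rnr1, the small subunit RNA of the mitochondrial ribosome, had 48.6 RPKM in the treated and 56.6 RPKM in the normal library, for a ratio of 0.857 (0.808 to 0.910). mt-Rnr2, the large subunit RNA, had 36.6 RPKM in the treated and 43.1 RPKM in the normal library, for a ratio of 0.851 (0.806 to 0.897). In these libraries, made with an mRNA kit, their RPKM lie far below those of most mRNAs. How fully the kit recovered ribosomal RNA was not tested, so this need not be the order in the cells.

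**Figure D3:**
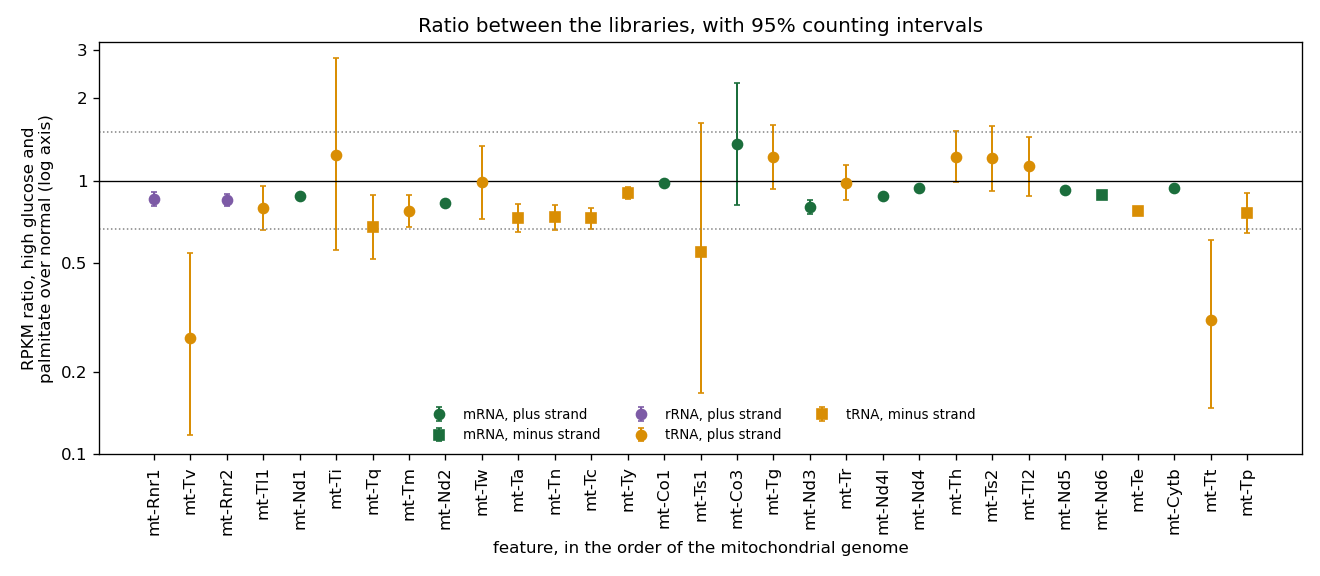
Ratio of RPKM in the treated over the normal library (log axis) for the 31 mitochondrial features with at least 10 reads over both libraries, in genome order; circles are plus and squares minus strand genes, bars are exact 95% counting intervals and dotted lines mark 1.5-fold. All squares lie below 1, and among the circles those of mt-Ti, mt-Co3, mt-Tg, mt-Th, mt-Ts2 and mt-Tl2 lie above 1 with intervals that include it.

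Transfer RNAs, which carry amino acids to the mitochondrial ribosome, had levels from 0.336 RPKM for mt-Tf to 2399 RPKM for mt-Te in the treated library. These and all levels of transfer RNAs here are those of reads on the gene, from an mRNA kit. Whether the reads came from finished transfer RNAs or from longer RNAs that contain them was not tested. Among those that reached a mean RPKM of 1, log2 ratios spanned -1.77 to 0.29, where the 9 such mRNAs spanned -0.32 to -0.02. In the treated library 2 genes held most of their reads, mt-Te for glutamate with 49.8% and mt-Ty for tyrosine with 22.9%, and in the normal library they held 52.0% and 20.5%. The median log2 ratio was -0.37 over the 20 that reached a mean RPKM of 1 and -0.36 over all 21. Over 396 features under 100 bases with that mean it was 0.02, and their 5th and 95th percentiles were -1.25 and 1.19. The DNA sequences of 8 genes that mark this range (GENCODE M21, strand of the gene) are printed with the anticodon in capitals, first 6 minus strand genes that were lower and then a plus strand gene that was lower and one that was not.
mt-Te: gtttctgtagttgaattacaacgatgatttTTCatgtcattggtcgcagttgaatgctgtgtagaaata
mt-Ty: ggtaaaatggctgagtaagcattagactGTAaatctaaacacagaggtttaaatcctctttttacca
mt-Tc: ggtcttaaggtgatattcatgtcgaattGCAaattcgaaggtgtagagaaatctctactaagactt
mt-Tn: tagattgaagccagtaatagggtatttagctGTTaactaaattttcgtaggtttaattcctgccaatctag
mt-Ta: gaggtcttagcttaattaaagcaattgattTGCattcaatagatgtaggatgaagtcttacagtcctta
mt-Tq: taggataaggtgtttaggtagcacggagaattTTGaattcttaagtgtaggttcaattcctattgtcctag
mt-Tv: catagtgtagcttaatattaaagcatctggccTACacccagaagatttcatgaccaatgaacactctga
mt-Th: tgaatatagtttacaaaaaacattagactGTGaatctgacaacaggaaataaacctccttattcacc

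The grouping of transfer RNAs by strand, position and read number below was chosen after their values were seen. The 8 minus strand transfer RNAs all had lower levels in the treated library, beside 44.7% of the 396 short features with a log2 ratio below 0. mt-Te, at positions 14071 to 14139 directly beside mt-Nd6, had 2399 RPKM in the treated and 3103 RPKM in the normal library, for a ratio of 0.773 (0.750 to 0.797). The genes mt-Ta, mt-Tn, mt-Tc and mt-Ty form a cluster at positions 5018 to 5326, between mt-Nd2 and mt-Co1. mt-Ty, nearest to mt-Co1, had 1135 RPKM in the treated and 1259 RPKM in the normal library, for a ratio of 0.901 (0.860 to 0.945). mt-Tc for cysteine had 286 RPKM in the treated and 393 RPKM in the normal library, for a ratio of 0.729 (0.666 to 0.798). mt-Tn for asparagine at 0.737 (0.663 to 0.818) and mt-Ta for alanine at 0.732 (0.651 to 0.822) lay close to mt-Tc, and these 3 intervals lie below that of mt-Ty.

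The remaining minus strand genes stood elsewhere on the circle. mt-Tp for proline had 85.7 RPKM in the treated and 112 RPKM in the normal library, for a ratio of 0.763 (0.645 to 0.902). mt-Tq for glutamine, with 94 reads in the treated and 140 in the normal library, had a ratio of 0.678 (0.516 to 0.887). mt-Ts1, a serine transfer RNA, had only 6 and 11 reads, a ratio of 0.551 (0.167 to 1.62), and its interval was the only one of the 8 to include 1. Of the 108 short features with at least 100 reads over both libraries, 22.2% had an interval below 1 and 12.0% one above it.

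Of the 13 plus strand transfer RNAs, 7 were below 0 on the log2 scale and 6 above it, where 41.7% of all 30868 listed features were below 0. Among the 12 that reached a mean RPKM of 1, 7 were below and 5 above 0. The like comparison for these 12 is the 396 short features, of which 44.7% were below 0. mt-Tm for methionine, with 127 RPKM in the treated and 164 RPKM in the normal library, had a ratio of 0.777 (0.678 to 0.889). mt-Tl1, a leucine transfer RNA directly before mt-Nd1, had 65.6 RPKM in the treated and 82.4 RPKM in the normal library, for a ratio of 0.795 (0.662 to 0.954). mt-Tr for arginine at 0.982 (0.847 to 1.14) and mt-Tw for tryptophan at 0.987 (0.724 to 1.34) were near 1. Between mt-Co3 and mt-Nd5 lie mt-Tg, mt-Tr, mt-Th, mt-Ts2 and mt-Tl2, and of these 5 only mt-Tr was below 1. mt-Th for histidine had 66.2 RPKM in the treated and 54.1 RPKM in the normal library, for a ratio of 1.22 (0.988 to 1.52). mt-Tg for glycine at 1.22 (0.936 to 1.60), mt-Ts2 for serine at 1.21 (0.920 to 1.58) and mt-Tl2 for leucine at 1.13 (0.882 to 1.45) also had intervals that include 1. Higher levels of these genes in the treated library were therefore not detectable at this depth.

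The transfer RNA genes past 1.5-fold all had few reads. mt-Tv for valine, which separates the ribosomal RNA genes, had 10 reads in the treated and 38 in the normal library, for a ratio of 0.266 (0.118 to 0.543). mt-Tt for threonine, directly after mt-Cytb, had 12 reads in the treated and 39 in the normal library, for a ratio of 0.311 (0.148 to 0.606). mt-Tf for phenylalanine, the first gene of the circle, had 1 and 6 reads, a ratio of 0.168 (0.00366 to 1.39). With mt-Ts1 these make 4 of the 20, beside 16.4% of the 396 features under 100 bases that were lower by at least 1.5-fold and 17.9% that were higher. mt-Td for aspartate had 2 reads in the treated and 0 in the normal library, where 3 reads would be 0.971 RPKM. It is the only one of the 36 members that, with no filter on level, was higher by at least 1.5-fold on log2 of RPKM plus 0.5, as were 2.35% of all 30868 features, while 1.91% were lower. No fold is given for it. mt-Ti for isoleucine had 16 and 13 reads, a ratio of 1.24 (0.560 to 2.81).

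Read by counting interval, 11 of the 21 transfer RNAs lay below 1 and 0 above it, while 9.09% of the 396 short features lay below and 8.08% above. Most short features had few reads, so those with at least 100 reads over both libraries are the nearer comparison. Among 108 such features 22.2% had an interval below 1 and 12.0% one above 1. Of the 15 transfer RNAs with as many reads, 9 had an interval below 1, and they are themselves part of the 108. 11 of the 15 had a log2 ratio below 0, beside 44.4% of the 108, and 0 were past 1.5-fold, beside 1.85% of the 108 lower and 3.70% higher. Over all 36 mitochondrial features, 22 intervals lay below 1 and 0 above it, beside 12.2% of all 30868 features below 1 and 4006 of them above it. Intervals cover counting error only, so they compare these libraries and not the treatments.

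Some transfer RNAs had levels close to that of a neighbouring mRNA and others far below it, a relation that was not tested. mt-Te at 2399 RPKM lies directly beside mt-Nd6 at 2679 RPKM, and mt-Tr at 121 RPKM next to mt-Nd3 at 128 RPKM, in the treated library. mt-Te and mt-Tt at 4.10 RPKM are on either side of mt-Cytb, which had 3209.8 RPKM. mt-Ty at 1135 RPKM and mt-Ts1 at 1.99 RPKM flank mt-Co1 at 1778 RPKM, and mt-Ti at 5.30 RPKM follows mt-Nd1 at 2296 RPKM. mt-Ts1, mt-Td, mt-Tg and mt-Tr lie within positions 6390 to 11042, the stretch that the chromosome 1 copies span, though no copy of these genes met the criterion. Whether their reads were placed on chromosome 1 was not tested, so the reads listed need not give their level. The 5 highest transfer RNAs are all on the strand opposite to that of most mRNAs. The sources used here do not say if counting used strand, and reads from the opposite strand of mt-Te, mt-Ty, mt-Tc, mt-Tn, mt-Ta and mt-Nd6 cannot then be told apart from their own. Nor is it given whether a read that spans a transfer RNA and its neighbour was counted for both.

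Among nuclear genes that transcribe and maintain the mitochondrial genome, values lay on both sides of 1. 16 of 18 reached a mean RPKM of 1, 11 of them with a positive log2 ratio and 5 with a negative one, and their median was 0.11, against 0.00 over all 13947 features. Of all 13947 features, 49.3% were negative. By counting interval 5 of the 16 lay above 1 and 3 below it, beside 3069 and 3104 of the 13947 features. Of the 16, 0 were past 1.5-fold, beside 1.48% of all features lower and 1.74% higher. Tfb2m, a transcription factor that helps the mitochondrial polymerase open promoters, had 7.71 RPKM in the treated and 6.30 RPKM in the normal library, for a ratio of 1.22 (1.11 to 1.35), and Mterf1b, a gene of the termination factor family, one of 1.30 (1.01 to 1.66). Mgme1, a nuclease of mitochondrial DNA maintenance, stood at 0.891 (0.826 to 0.960) and Polg, the catalytic subunit of the mitochondrial DNA polymerase, at 0.930 (0.880 to 0.983). Exons of Mgme1 and Polg overlap genes on the opposite strand.

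Among regulators in the nucleus the members went both ways, 4 of 7 below 0 with a median of -0.06, beside 49.3% of all 13947 features below 0. Ppargc1a, which encodes the coactivator PGC-1alpha of mitochondrial biogenesis, had 3.43 RPKM in the treated and 4.02 RPKM in the normal library, for a ratio of 0.854 (0.784 to 0.931). Its relative Ppargc1b stood at 0.865 (0.734 to 1.02). Pprc1, the third member of that family, at 1.17 (1.08 to 1.26), and Esrra, which encodes a nuclear receptor they work with, at 1.32 (1.15 to 1.52), lay above 1. Exons of Pprc1 overlap a gene on the opposite strand, and those of Esrra a gene on either strand.

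Genes that process, stabilise and modify mitochondrial RNA had medians near 0, where 49.3% of all 13947 features had a log2 ratio below 0. RNA processing genes had 10 of 14 members above 0 and a median of 0.07, from Hsd17b10, a subunit of mitochondrial RNase P, at 0.921 (0.837 to 1.01) to Fastkd1 at 1.27 (1.11 to 1.45). Tbrg4 stood at 1.25 and Fastkd5 at 0.922 (0.837 to 1.02). RNA stability and decay genes, 7 of 8 of which reached the mean RPKM, had 5 members below 0 and a median of -0.02. The lowest was Lrpprc, whose product binds and stabilises mitochondrial mRNAs, with 12.2 RPKM in the treated and 13.8 RPKM in the normal library, for a ratio of 0.884 (0.849 to 0.920), followed by its partner Slirp at 0.949 (0.910 to 0.989). Rexo2, an exonuclease of short RNAs, stood at 1.13 (1.07 to 1.19) and the helicase gene Supv3l1 at 1.00.

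Genes that modify transfer RNAs had 11 of 16 members above 0 and 5 below it, beside 49.3% of all 13947 features below it, and a median of 0.09. Trmu, which thiolates mitochondrial transfer RNAs, had 3.88 RPKM in the treated and 3.01 RPKM in the normal library, for a ratio of 1.29 (1.15 to 1.45), and the methyltransferase gene Trmt61b one of 1.33 (1.17 to 1.51). Mto1 at 0.904 (0.796 to 1.03) and Trit1 at 0.904 (0.791 to 1.03) were lowest. Genes that modify ribosomal RNA, 7 of 8 of which reached the mean, had 5 members above 0 and the same median, from the methyltransferase gene Mrm2 at 0.837 (0.690 to 1.01) to Mrm1 at 1.30 (1.08 to 1.56), with Mettl17 at 0.988 and the pseudouridine synthase gene Rpusd4 at 1.18. 0 members of these lists were past 1.5-fold, beside 1.48% of all 13947 features lower and 1.74% higher. At such shares few or no calls would be found in lists of this size. Exons of Fastkd5, Mettl17, Mrm1, Mrm2, Mto1, Slirp, Supv3l1, Tbrg4 and Trmt61b overlap other listed genes.

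Nuclear partners of the mitochondrial subunits are given beside them here, complex by complex, where 49.3% of all 13947 features had a log2 ratio below 0. Nuclear complex I genes, 38 of 40 of which reached the mean RPKM, had 23 members below 0 and a median of -0.07, against -0.18 over the 7 mitochondrial ones. Nuclear complex IV genes had 10 of 12 members below 0 and a median of -0.23, where mt-Co1 had a log2 ratio of -0.02 and, with copies added, mt-Co2 one of -0.10 and mt-Co3 one of -0.06. In complex III 7 of 9 nuclear members were below 0 with a median of -0.03, where mt-Cytb had -0.08. In ATP synthase it was 14 of 17 with a median of -0.09, where mt-Atp6 with its copy had -0.07. Whether the lists differ was not tested, and genes of a complex are not replicates.

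Single nuclear subunits reached lower ratios than any mitochondrial mRNA. Cox6a1, a small subunit of complex IV, had 13.9 RPKM in the treated and 20.9 RPKM in the normal library, for a ratio of 0.666 (0.588 to 0.754), and Cox8a one of 0.770 (0.679 to 0.873). Cox7b at 1.01 and Cox4i1 at 1.04 (1.00 to 1.08) were highest in that complex. In complex I, Ndufab1, the acyl carrier protein, had 5.16 RPKM in the treated and 7.99 RPKM in the normal library, for a ratio of 0.646 (0.605 to 0.688), and was the only member of the nuclear lists past 1.5-fold on the scale used. Of all 13947 features, 1.48% were lower and 1.74% higher by that fold. Ndufb4c stood at 0.839, Ndufa3 at 1.13 and Ndufc2 at 1.14 (1.02 to 1.28). Among the others, Cyc1, the cytochrome c1 gene of complex III, stood at 0.836 (0.758 to 0.923), Uqcr11 at 0.918, Uqcrc2 at 1.05 and Uqcrq at 1.11. In ATP synthase, Atp5g3 and Atp5g1, which encode the same ring subunit, went opposite ways at 0.760 (0.704 to 0.821) and 1.33, with Atp5e at 0.816 and Atp5o at 1.03. Exons of Ndufab1, Ndufa3, Cox4i1, Uqcrc2 and Atp5o overlap other genes.

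**Figure D4:**
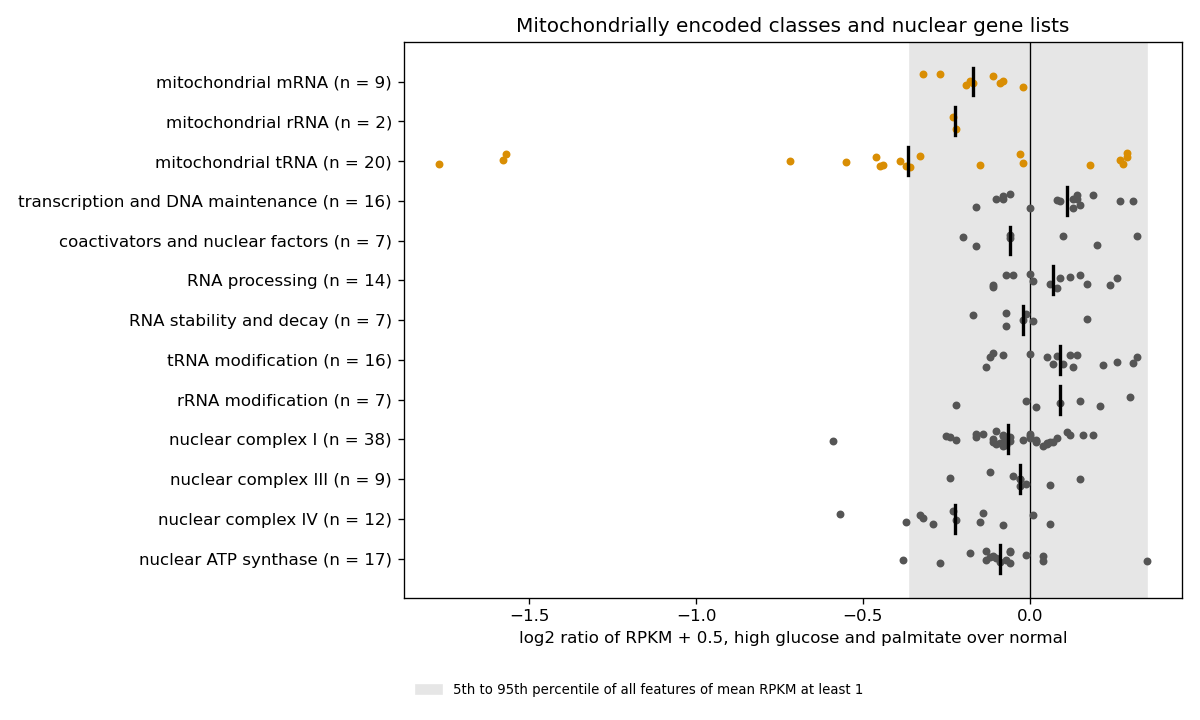
log2 ratio of RPKM + 0.5, treated over normal, for features of mean RPKM 1 or more; each point is a gene, black bars are medians, orange points are mitochondrially encoded and grey points are nuclear genes. The band marks the 5th to 95th percentile of all 13947 features, -0.36 to 0.35, and holds all 9 mRNAs, whose median is -0.17, while transfer RNA genes reach down to -1.77.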

How the data were processed

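2 MIN6 samples gave 1 library each, from Trizol RNA with a stranded mRNA kit, per the labels' protocols. The authors deposited RPKM values, 1 column per library, named as the sample titles. The build GRCm39 and the tools edgeR 3.12.1 and Trimmomatic 0.36 are named, without their roles, in the submitters' processing notes. Aligner, counter, strand setting and treatment of multiple alignments: not given in the sources used here. RPKM times length gave whole reads for 100.0% of values (tolerance 0.01 read). The steps were tested on simulated reads. Copies were found with BLAST+ 2.17.0 among GENCODE M21 transcripts, and each printed anticodon is the only triplet that reads a codon of the gene's amino acid in a 7-base loop closed by at least 4 of 5 base pairs. Ratios have exact 95% intervals (scipy 1.17.1), and counts use 1.5-fold with a pseudocount of 0.5 and a mean RPKM of at least 1. All 36 listed members are named; of each nuclear list, those past 1.5-fold and the pairs with the highest and lowest log2 ratio. Members and lists were chosen with earlier results of these data known. Alternatives were pseudocounts, filters, scalings, thresholds and copies summed with genes.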

Additional observations from a re-analysis of the deposited data

How the results depend on the processing

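No paired analysis was possible because each group has 1 library. A pseudocount cannot turn the direction of a ratio. The 3 other scalings turned the direction of none of the 36 members and moved no member's log2 ratio by more than 0.007. Adding the reads of nuclear copies turned 3 that have few reads of their own, giving log2 ratios of -0.10 for mt-Co2, -0.07 for mt-Atp6 and -0.06 for mt-Co3, against 0.34, 0.46 and 0.29 without them. The mRNA median of -0.17 was -0.09 with no filter, -0.14 without features under 300 bases and -0.11 with copies added. The share of reads on mitochondrial features, treated and normal, was 1.23% and 1.35% with the 10 most abundant features left out, 1.95% and 2.13% relative to all other reads, 1.79% and 1.94% without features under 300 bases, and 2.72% and 2.94% with copies. Of mitochondrial features, 4 were lower by 1.5-fold, 2 at a mean RPKM of at least 5, 0 without features under 300 bases and 22 by interval. With no filter 1, mt-Td, was higher. Counts over all features, 207 lower and 243 higher, were 591 and 725 with no filter, 51 and 67 at a mean RPKM of at least 5, 100 and 125 without features under 300 bases, 51 and 75 at 2-fold, and 3104 and 3069 by interval; at a pseudocount of 1, 136 were lower. Transfer RNA medians could not be had without features under 300 bases. Depth limits the 6 transfer RNAs with under 100 reads.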
